A study of Mus musculus with 24 samples.

Results

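The comparison concerned mouse digits that looked unwounded in 2 strains, C57BL/6 (B6) and MRL/MpJ (MRL). Its members were the 3 arrays titled MRL day 3 and the 3 titled B6 day 0, 6 of the 24 arrays of the series. They were chosen from measured values: both groups had low Il1b, the interleukin 1 beta gene of early inflammation, low Mmp13, a collagenase gene of healing wounds, and high Krt31, a hair and nail keratin gene. The day label of the MRL group is in doubt, because a digit taken 3 days after amputation would carry a fresh wound. Nothing in the labels beyond the stated day says whether these 3 arrays came from amputated or intact MRL digits, so the group is called MRL labelled day 3 throughout, and strain, stage and label cannot be told apart in any difference between the pair. All animals were wild-type and 3 to 4 months old, and the labels gave no sex. Each group held 3 biological replicates, with no statement of how many animals supplied each one. Amputation was at day 0, and the series holds unamputated digits, although no label of a single array says which they are. The B6 arrays titled day 0 are taken here as unamputated. The day label of the MRL arrays titled day 0 is in doubt as well, because their Il1b and Mmp13 were far above those of B6 day 0. For the tissue, the labels named the second phalanx of middle digits from the hindlimb, and a note named the anterior part of that digit instead.

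The digit tip joins nail, hairy and glabrous skin, bone, tendon and connective tissue. After amputation, neutrophils and macrophages enter the stump and keratinocytes at the wound edge switch to stress keratins, calprotectin and small proline-rich proteins, while the hair and nail programme recedes. MRL is an inbred strain known for closing ear holes with little scar, and B6 is the usual comparison strain for it.

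The 3 genes that chose the pair are given as values alone. Il1b lay at log2 intensities of 5.99, 5.64 and 6.40 in the B6 day 0 arrays and 5.08, 6.58 and 6.29 in the MRL labelled day 3 arrays. Mmp13 lay at 6.29, 5.67 and 6.07 in B6 and 6.00, 5.82 and 5.64 in MRL labelled day 3. Both genes overlapped between the groups. The groups nearest by label stood far from these levels: Il1b averaged 11.78 in B6 day 3 and 10.21 in the MRL arrays titled day 0, and Mmp13 averaged 10.99 and 10.54. Krt31 was at 10.79, 10.38 and 10.63 in B6 day 0 and 10.14, 9.99 and 10.26 in MRL labelled day 3, every MRL value under the lowest B6 one, against means of 6.38 in B6 day 3 and 7.48 in MRL titled day 0.

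The B6 day 0 arrays stood apart from the rest of the series, and every difference of the pair rests on them. Over 15928 probe sets, their median correlation with the other arrays was 0.957 to 0.965, near the 0.963 to 0.965 of B6 day 3 and below the 0.972 to 0.981 of the other 18 arrays. In 2127 probe sets (13.4%) all 3 B6 day 0 arrays lay beyond all 21 others, more than in any other group, and in MRL labelled day 3 the number was 628 (3.94%). Correlations between the 2 groups ran from 0.967 to 0.980, and those between MRL labelled day 3 and MRL day 14 from 0.977 to 0.986. Array medians ran from 141 to 181 in intensity, and the lowest value of the table was 3.99. As a check of the tissue, the mean log2 intensity of the epidermal keratin list was 9.58 to 9.70 in B6 day 0 and 9.82 to 9.85 in MRL labelled day 3. That of the hair and nail keratin list was 9.59 to 9.91 and 9.62 to 10.16, and that of the osteoblast and osteocyte list was 7.97 to 8.25 and 7.54 to 7.80. Skeletal muscle genes averaged 5.77 to 6.06 and erythroid genes 5.46 to 5.83 over the 6 arrays. In whole tissue, fewer cells of a type and less RNA per cell cannot be told apart.

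**Figure D1:**
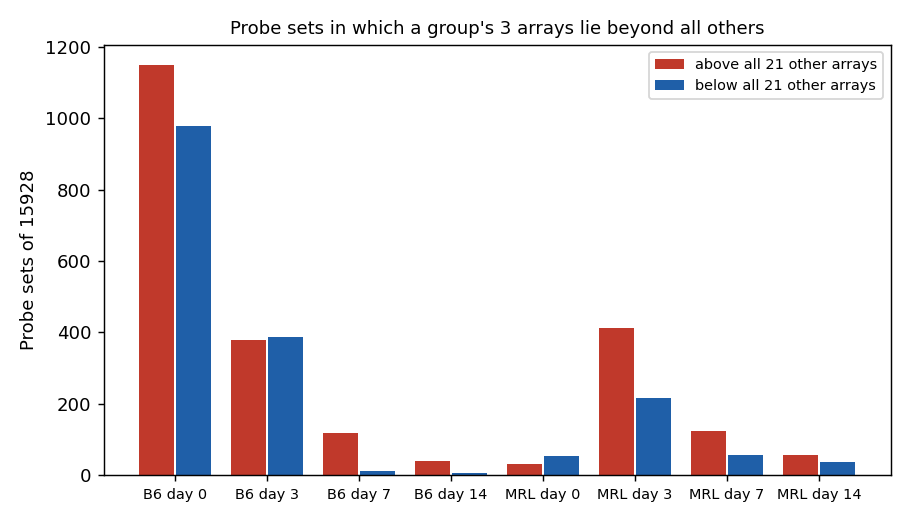
Number of probe sets, of 15928 tested, in which the 3 arrays of a group (x axis, named by title) all lay above or all lay below the 21 other arrays. B6 day 0 had 1149 above and 978 below, and MRL day 3 had 412 and 216.

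Between the 2 groups the MHC class II gene H2-Ea was far higher in MRL labelled day 3, and Skint9, Skint3 and Skint4, genes of the epidermis, were near the bottom of the scale there. Of the measured members, 11 of 21 cell cycle genes were higher in MRL, and 16 of 23 genes of collagen and matrix were lower. By a limma fit over all 24 arrays with p-values adjusted over all probe sets, 4833 of 15928 probe sets passed an adjusted p of 0.05 (30.3%), 2870 of them higher in MRL labelled day 3 (18%) and 1963 lower (12.3%). Counts of list members in the pair are to be read beside these shares. Most differences were small, and 346 probe sets (2.17%) passed with a change of at least 2-fold, 278 higher (1.75%) and 68 lower (0.427%). In 7975 probe sets (50.1%) the arrays of the 2 groups did not overlap. Of the 4833, 1607 were probe sets in which B6 day 0 lay beyond all 21 other arrays, and 442 were ones in which MRL labelled day 3 did. How the total divided between the directions depended on scaling: cyclic loess gave 2590 higher and 2957 lower, quantile normalization 2693 and 2996, and median centring 3456 and 2128. Among the 15 genes with the largest rise, 6 had B6 day 0 beyond all other arrays and 4 had every MRL array of the series above every B6 array. Among the 15 with the largest fall these numbers were 5 and 7.

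MRL and B6 digits at day 7 and at day 14 gave strain comparisons on other arrays. There, 1506 probe sets passed at day 7 (9.46%), 507 higher in MRL (3.18%) and 999 lower (6.27%). At day 14 839 passed (5.27%), 138 higher (0.866%) and 701 lower (4.4%). Cyclic loess gave 1025 higher and 963 lower at day 7, and 382 and 633 at day 14. Quantile normalization gave 1044 and 907, and 455 and 584, and median centring 844 and 1014, and 466 and 506. Without MRL day 7 array 1 the day 7 count was 894, without B6 day 7 array 2 it was 927 and without B6 day 7 array 3 it was 989. At day 14 it was 499 without MRL array 2 and 518 without B6 array 2. The intact-like pair and day 7 shared 358 calls in the same direction, 7.41% of the pair's calls and 23.8% of those at day 7, and 219 in opposite directions. With day 14 it shared 283, 5.86% of its own and 33.7% of those at day 14, and 121 were opposite. All 3 comparisons called 207 probe sets the same way (1.3%), 54 higher in MRL (0.339%) and 153 lower (0.961%), which was 4.28% of the pair's calls, 13.7% of those at day 7 and 24.7% of those at day 14. In 78 of the 207, all 12 MRL arrays lay on 1 side of all 12 B6 arrays. Over the whole array 86 probe sets (0.54%) had that separation, 57 of them lower in MRL. Whether differences in sequence between the strains alter the binding of probes was not tested.

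**Figure D2:**
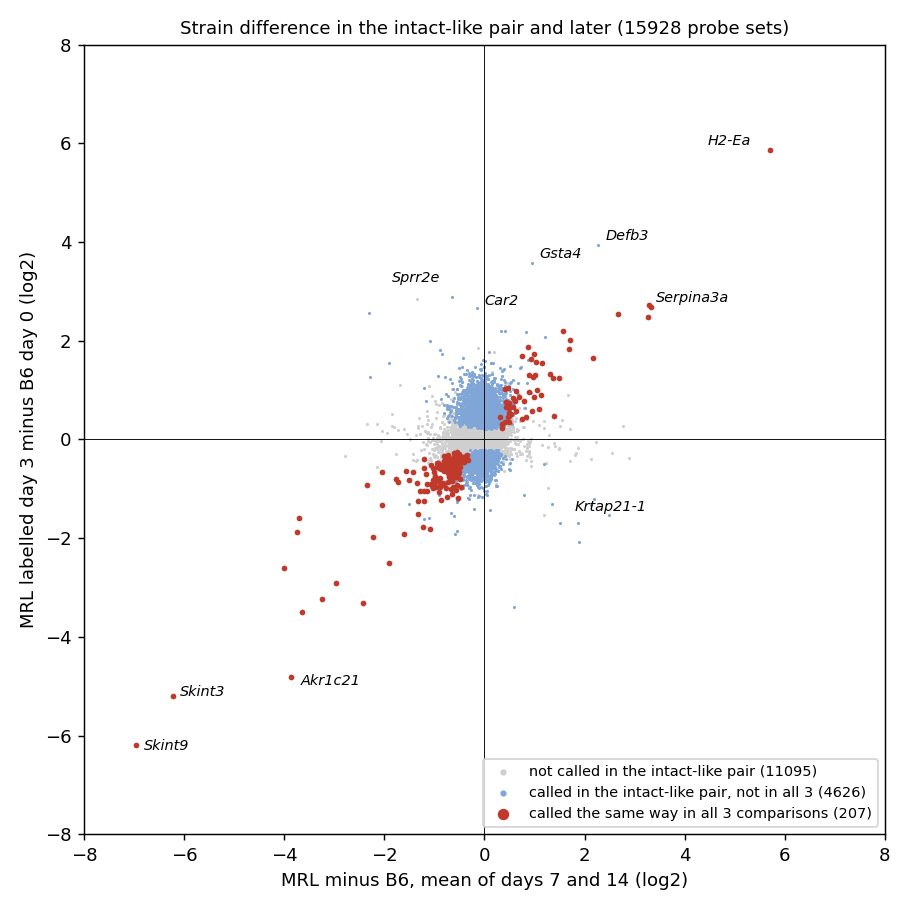
Log2 difference of MRL labelled day 3 minus B6 day 0 (y axis) against the mean MRL minus B6 difference of days 7 and 14 (x axis), 1 point for each of 15928 probe sets. Red points mark the 207 called the same way in all 3 comparisons, with H2-Ea at the top right and Skint9 and Skint3 at the bottom left. Gsta4, Car2 and Sprr2e lie high on the y axis, away from the red points.

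H2-Ea, which encodes the alpha chain of the MHC class II molecule I-E and is known not to be expressed in mice of the B6 haplotype, was at 5.10, 5.33 and 5.30 in B6 day 0 and 10.86, 11.09 and 11.39 in MRL labelled day 3. Its difference was 5.87 ± 0.23 (SE, adjusted p = 2.35e-13), and it was 5.86 at day 7 and 5.56 at day 14. Of the other 5 class II genes, 4 went the other way. H2-Ab1, the beta chain of I-A, was at 11.12, 10.74 and 11.16 in B6 and 9.21, 9.50 and 9.75 in MRL, so the groups did not overlap, with a difference of -1.52 ± 0.17 (SE, adjusted p = 2.44e-06). It was -1.23 at day 7 and -1.43 at day 14. H2-DMa, which helps load peptides, differed by -0.79 ± 0.15 (SE, adjusted p = 0.000505) and Cd74, the invariant chain, by -1.03 ± 0.18 (SE, adjusted p = 0.000182). For Cd74 the pair's difference was itself larger than at days 7 and 14, by -0.77 (adjusted p = 0.0116). Of 6 class II genes measured, 1 was higher and 4 were lower, the last being H2-Aa, named after its value was seen. These genes serve antigen presentation by Langerhans cells, dendritic cells, macrophages and B cells. In the macrophage list 0 of 18 members were higher and 3 were lower, C1qb, C1qc and Csf1r (6 with cyclic loess or quantile normalization), and their part in the class II differences was not tested.

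C1qb and C1qc are subunits of the complement starter C1q that macrophages make, and Csf1r is the receptor for their growth factor. All 3 were lower in MRL in the pair, at day 7 and at day 14, but not by title at day 0. C1qb was at 10.17, 10.13 and 10.48 in B6 day 0 and 9.25, 9.30 and 9.56 in MRL labelled day 3, without overlap. Its difference was -0.89 ± 0.14 (SE, adjusted p = 0.000106) in the pair, -0.80 at day 7 and -0.93 at day 14. C1qc differed by -0.74 (adjusted p = 0.00086) and Csf1r by -0.47 (adjusted p = 0.00171). In the same fit, MRL titled day 0 minus B6 day 0 gave 0.11 (adjusted p = 0.557) for C1qb, 0.03 (adjusted p = 0.889) for C1qc and 0.17 (adjusted p = 0.197) for Csf1r. From day 0 to day 3 in B6, C1qb, C1qc and Csf1r rose by 0.91, 0.49 and 0.54. The macrophage list as a whole had a median difference of -0.16 in the pair, against -0.04 over all genes, and its level ran from 7.90 to 8.10 in B6 day 0 and from 7.69 to 7.90 in MRL labelled day 3 as a mean log2 intensity.

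The Skint genes encode membrane proteins of keratinocytes, and Skint1, the founder of the family, is known to select the gamma delta T cells of mouse epidermis. Skint3 and Skint4 lie close together on chromosome 4, and the 250 bases before the start of each are shown because both were near the bottom of the scale in every MRL array. The sequences are from RefSeq on GRCm38.p6, the plus strand of chr4:112231995-112232244 and chr4:112081220-112081469, and Skint4 has 2 starts in that table, of which this is 1. Capitals mark the longest run that the windows share.
Skint3: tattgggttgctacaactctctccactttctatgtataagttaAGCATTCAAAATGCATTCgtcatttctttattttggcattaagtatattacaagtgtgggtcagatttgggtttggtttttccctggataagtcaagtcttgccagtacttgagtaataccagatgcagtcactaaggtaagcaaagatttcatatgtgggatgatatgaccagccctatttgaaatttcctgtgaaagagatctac
Skint4: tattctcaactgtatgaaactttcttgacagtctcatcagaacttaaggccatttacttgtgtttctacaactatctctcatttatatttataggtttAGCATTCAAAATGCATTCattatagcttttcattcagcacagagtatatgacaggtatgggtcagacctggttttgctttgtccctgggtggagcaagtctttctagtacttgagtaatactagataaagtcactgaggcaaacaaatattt
The run is 18 bases long, begins 207 bases before the start of Skint3 and 152 bases before that of Skint4, and was found on either strand in 2 of 32851 windows (0.00609%). The windows of Skint9 and Skint2 shared no run over 7 and 12 bases with that of Skint3.

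Skint9 was at 8.97, 9.12 and 8.78 in B6 day 0 and 2.69, 2.86 and 2.75 in MRL labelled day 3. The difference was -6.19 ± 0.14 (SE, adjusted p = 5.84e-18), and it was -6.95 and -6.97 at days 7 and 14. Skint3, the first of the sequences above, was at 8.47, 8.62 and 8.29 in B6 and 3.36, 3.03 and 3.42 in MRL, a difference of -5.19 ± 0.16 (SE, adjusted p = 1.65e-15). Skint4 was at 6.83, 7.40 and 6.73 in B6 and 3.44, 3.50 and 3.53 in MRL, a difference of -3.50 ± 0.19 (SE, adjusted p = 5.63e-11). In all 3 genes every MRL array of the series lay below every B6 array. How far the MRL values of these genes lie above background is not known, so the sizes of their differences are not compared between stages. Skint2 differed by -0.66 ± 0.19 (SE, adjusted p = 0.0118), but by -0.42 (adjusted p = 0.0947) without B6 day 0 array 1 and -0.55 (adjusted p = 0.072) without MRL array 1. Altogether 4 of 5 measured Skint genes were lower in MRL, at a median of -3.50. The T cell list had 1 of 17 members higher, Il7r, and 0 lower. Il7r lost its call under several alternatives, with 0.46 (adjusted p = 0.144) without MRL array 3.

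**Figure D3:**
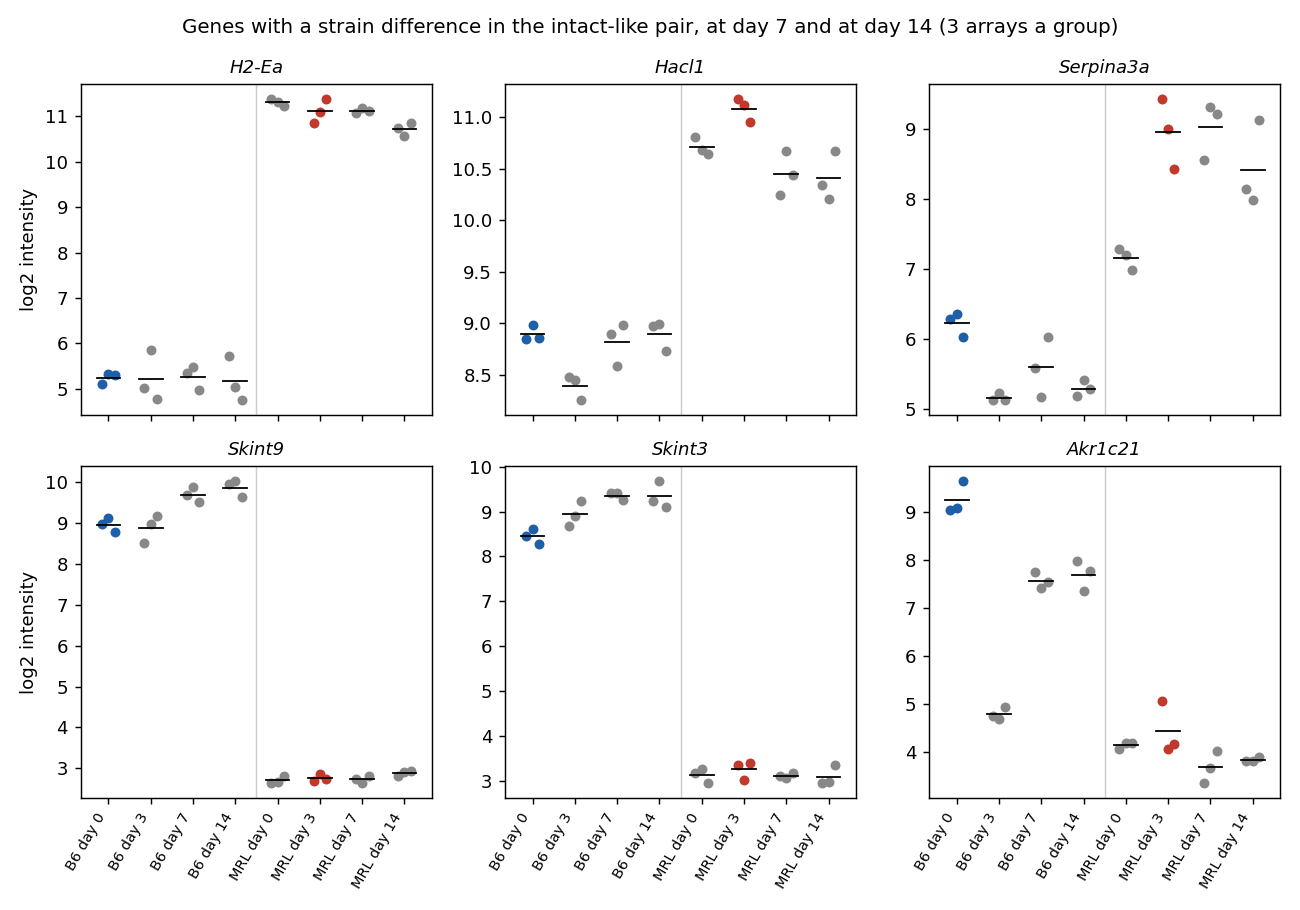
Log2 intensity of 6 genes in the 24 arrays, by titled group (x axis), with 1 point for each array and a line at the group mean. B6 day 0 is blue and MRL day 3 red. H2-Ea, Hacl1 and Serpina3a are higher in every MRL array than in any B6 array, Skint9 and Skint3 are lower in every MRL array, and Akr1c21 is highest in B6 day 0.

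Several enzymes and inhibitors also followed the strain. Hacl1, a peroxisomal enzyme that shortens fatty acids, was at 8.85, 8.98 and 8.86 in B6 day 0 and 11.18, 11.12 and 10.95 in MRL labelled day 3. The groups were far apart at 2.19 ± 0.13 (SE, adjusted p = 3.02e-10), with 1.63 at day 7 and 1.51 at day 14, and the excess in the pair over those days passed its own test at 0.62 (adjusted p = 0.00654). Serpina3a, of the antichymotrypsin cluster, was at 6.28, 6.35 and 6.03 in B6 and 9.43, 8.99 and 8.43 in MRL, a difference of 2.73 ± 0.27 (SE, adjusted p = 7.09e-07). B4galnt2, a glycosyltransferase, differed by 2.01 ± 0.20 (SE, adjusted p = 9.62e-07) and Slc12a2, a sodium, potassium and chloride cotransporter, by 1.56 ± 0.11 (SE, adjusted p = 6.38e-09). Atp10d, of the lipid flippase family but listed by RefSeq as a transcribed pseudogene, differed by 1.54 ± 0.10 (SE, adjusted p = 3.06e-09). In the MRL arrays each of these 5 genes was above all 12 B6 arrays. The sweat gland list, which holds Slc12a2, had 1 of 9 members higher and 2 lower, Foxa1 at -0.48 (adjusted p = 0.016) and Foxi1 at -0.36 (adjusted p = 0.0451). Those calls were lost without MRL array 1, at -0.40 (adjusted p = 0.0843) and -0.27 (adjusted p = 0.202), and without B6 day 0 array 3, at -0.45 (adjusted p = 0.0576) and -0.34 (adjusted p = 0.116).

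On the lower side, Akr1c21, a hydroxysteroid dehydrogenase, was at 9.04, 9.08 and 9.63 in B6 day 0 and 5.06, 4.07 and 4.17 in MRL labelled day 3. The difference was -4.82 ± 0.22 (SE, adjusted p = 2.47e-12), and it was -3.88 and -3.86 at days 7 and 14. B6 day 0 had the highest values of the series for Akr1c21, and the B6 day 3 mean was 4.78. Cyp2g1, a cytochrome P450, was at 9.67, 9.47 and 9.83 in B6 and 7.61, 6.25 and 6.39 in MRL, a difference of -2.91 ± 0.34 (SE, adjusted p = 4.71e-06) that was -2.94 and -3.02 later. Gpx3, the secreted glutathione peroxidase, differed by -1.92 ± 0.28 (SE, adjusted p = 3.42e-05), Etnppl, a phosphoethanolamine lyase, by -2.50 ± 0.24 (SE, adjusted p = 7.05e-07), and Akr1e1, an aldose reductase relative, by -1.99 ± 0.23 (SE, adjusted p = 4.91e-06). Rab6b, a small GTPase of Golgi traffic, differed by -1.78 ± 0.11 (SE, adjusted p = 3.02e-10) and Mamdc2, a matrix protein, by -1.34 ± 0.10 (SE, adjusted p = 1.36e-08). Mgp, which restrains calcification of matrix, was at 8.50, 8.65 and 8.64 in B6 and 6.96, 7.10 and 6.91 in MRL, and it was lower by -1.60 (adjusted p = 0.00043) in the pair and -1.79 (adjusted p = 0.000526) at day 7, with -0.63 (adjusted p = 0.29) at day 14.

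Uqcc2, a mitochondrial assembly factor, was at 6.78, 7.19 and 7.05 in B6 day 0 and 4.46, 5.59 and 5.41 in MRL labelled day 3, a difference of -1.85 ± 0.54 (SE, adjusted p = 0.0128). Without MRL array 1, the lowest, it was -1.50 (adjusted p = 0.0782). Among the 44 measured enzymes of glutathione and xenobiotic metabolism, 9 were higher and 6 lower in MRL, with a median of -0.07, shares near the 18% and 12.3% over all probe sets. The lower count was 12 with quantile normalization or the 6 arrays alone and 10 with cyclic loess or array weights. Aox4, an aldehyde oxidase, was at 9.15, 9.09 and 9.08 in B6 and 10.64, 10.83 and 11.03 in MRL, and its difference of 1.73 ± 0.19 (SE, adjusted p = 2.23e-06) was larger than at days 7 and 14 by 0.73 (adjusted p = 0.022). Of 23 serine protease inhibitor genes measured, 9 were higher and 5 lower. Serpinb13, an inhibitor of lysosomal proteases in keratinocytes, was at 7.13, 7.00 and 6.77 in B6 and 8.91, 8.73 and 8.89 in MRL, a difference of 1.88 ± 0.16 (SE, adjusted p = 1.32e-07). Serpina3b, a neighbour of Serpina3a, went the other way, from 11.86, 12.17 and 12.21 in B6 to 10.24, 10.21 and 10.33 in MRL, a difference of -1.82 ± 0.18 (SE, adjusted p = 1.02e-06). Serpinb3d differed by 1.59 (adjusted p = 0.009) and by 1.29 (adjusted p = 0.0601) without B6 day 0 array 3.

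The strain difference of the pair was also tested against the mean of those at days 7 and 14. It differed in 4016 probe sets (25.2%), 2961 more positive in the pair (18.6%) and 1055 more negative (6.62%), and cyclic loess changed those to 2248 and 2523 and quantile normalization to 2303 and 2705. Median centring gave 3078 and 1907. Among the 2961, the median deviation from the mean of all groups was -0.34, -0.37 and -0.48 in the 3 B6 day 0 arrays and 0.23, 0.11 and 0.13 in the 3 MRL labelled day 3 arrays. B6 day 0 therefore lay further from the series mean than MRL labelled day 3 in these probe sets. The 10 genes most positive by this test all rose from B6 day 0 to B6 day 3, a comparison on the same B6 day 0 arrays in which 7234 probe sets passed (45.4%), 2776 higher (17.4%) and 4458 lower (28%). Median centring turned that division to 4480 higher and 2939 lower. The 10 most negative were all keratin-associated protein genes, and all 10 fell from B6 day 0 to B6 day 3. Low Il1b and Mmp13 and high Krt31 chose the pair. The inflammatory and hair genes at both ends of this test may therefore follow from that choice, and their values are a description only.

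**Figure D4:**
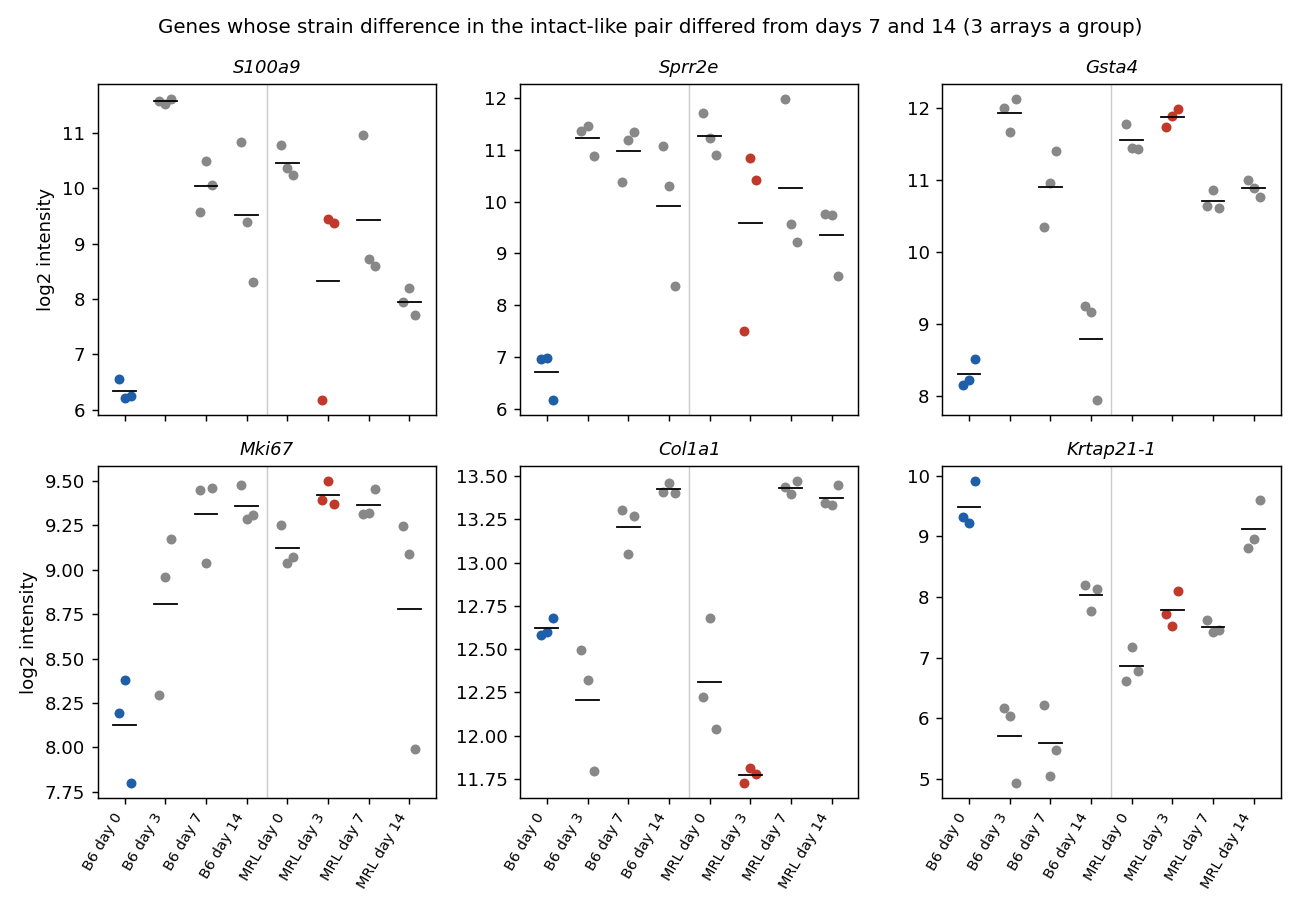
Log2 intensity of 6 genes whose strain difference in the pair differed from that at days 7 and 14, in 24 arrays by titled group (x axis), with 1 point for each array and a line at the group mean. S100a9 and Sprr2e are low in B6 day 0 and in 1 of the 3 MRL day 3 arrays, Gsta4 and Mki67 are lower in B6 day 0, and Col1a1 and Krtap21-1 are lower in MRL day 3.

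Several epidermal and neutrophil genes differed in MRL labelled day 3, and for some of them MRL array 1 sat at the B6 level. The pair was chosen for low Il1b and Mmp13, so levels of other inflammatory genes may follow from that choice and are a description only. S100a8 and S100a9 encode the subunits of calprotectin, made by neutrophils and by stressed keratinocytes. S100a9 was at 6.55, 6.22 and 6.26 in B6 day 0 and 6.17, 9.44 and 9.38 in MRL, so MRL array 1 was below every B6 array while arrays 2 and 3 were far above. The difference was 1.99 ± 0.69 (SE, adjusted p = 0.0332), and it lost its call without MRL array 2, at 1.43 (adjusted p = 0.162), without MRL array 3, at 1.46 (adjusted p = 0.155), and without each B6 day 0 array, at p from 0.0558 to 0.0844. S100a8 was at 7.59, 7.32 and 7.41 and 7.14, 10.41 and 10.18, with 1.80 ± 0.58 (SE, adjusted p = 0.0216) overall and 1.22 (adjusted p = 0.137) and 1.34 (adjusted p = 0.118) without MRL arrays 2 and 3. Without B6 day 0 arrays 2 and 3 it was 1.75 (adjusted p = 0.0592) and 1.79 (adjusted p = 0.0578). Lcn2, the siderophore-binding lipocalin of the same cells, was also at the B6 level in MRL array 1, with 7.64, 7.12 and 7.28 in B6 against 7.07, 9.30 and 10.06 in MRL and a difference of 1.46 (adjusted p = 0.0347). It lost its call without MRL array 2 or 3, at 1.22 (adjusted p = 0.124) and 0.84 (adjusted p = 0.225), and without B6 day 0 array 2 or 3, at 1.35 (adjusted p = 0.0982) and 1.43 (adjusted p = 0.0876).

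Sprr2e, a small proline-rich protein of the cornified envelope, was at 6.96, 6.97 and 6.16 in B6 and 7.50, 10.85 and 10.41 in MRL, all MRL arrays higher. Its difference was 2.89 ± 0.75 (SE, adjusted p = 0.00607) and exceeded that at days 7 and 14 by 3.53 (adjusted p = 0.00734). Defb3, a beta-defensin that kills bacteria, was at 4.85, 4.60 and 4.66 in B6 and 5.82, 10.71 and 9.37 in MRL, with no overlap and a wide spread in MRL, and differed by 3.93 ± 1.02 (SE, adjusted p = 0.00578). Rptn, repetin of the cornified envelope, was at 9.43, 9.18 and 8.94 and 10.42, 11.64 and 10.68, a difference of 1.73 ± 0.36 (SE, adjusted p = 0.00113) that exceeded the later ones by 2.57 (adjusted p = 0.000278). For Sprr2e and Rptn this excess was larger than the difference in the pair, so the mean of the later differences was negative. Of 24 cornified envelope genes, 3 were higher and 0 lower, Sprr2d, Rptn and Ivl, a share under the 18% higher over all probe sets. With cyclic loess 8 were lower. Sprr2d was at 8.13, 7.64 and 7.06 and 7.36, 11.43 and 10.65, with 2.20 (adjusted p = 0.0167), and lost its call without MRL array 2 or 3, at 1.39 (adjusted p = 0.124) and 1.79 (adjusted p = 0.082), or B6 day 0 array 3, at 1.93 (adjusted p = 0.0744). Ivl, involucrin, differed by 1.03 (adjusted p = 0.0115) and by 0.88 (adjusted p = 0.0574) without B6 day 0 array 2.

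Krt16, a keratin that keratinocytes add after injury, was at 8.82, 8.69 and 8.86 in B6 day 0 and 9.40, 11.09 and 10.55 in MRL labelled day 3. All MRL arrays were higher, with a difference of 1.55 ± 0.58 (SE, adjusted p = 0.0475), but it lost its call without MRL array 2, at 1.18 (adjusted p = 0.184), or array 3, at 1.45 (adjusted p = 0.113), and without any of the B6 day 0 arrays, at p from 0.0883 to 0.106. Krt9, the keratin of palm and sole skin, was at 7.26, 6.94 and 6.78 and 9.94, 9.36 and 7.90, a difference of 2.08 (adjusted p = 0.0075) and of 1.64 (adjusted p = 0.0581) without MRL array 1. Krt78 was at 9.06, 8.91 and 9.01 and 9.69, 9.59 and 9.69, with 0.66 (adjusted p = 0.0276). Without MRL array 1 or 3 it was 0.64 (adjusted p = 0.0766) and 0.64 (adjusted p = 0.0669), and without B6 day 0 array 2 or 3 it was 0.62 (adjusted p = 0.0794) and 0.67 (adjusted p = 0.0637). These were the 3 of 19 epidermal keratins that were higher, a share under the 18% over all probe sets, and 0 were lower. With cyclic loess 1 was higher and 4 were lower.

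Other genes were higher in all 3 MRL labelled day 3 arrays than in all 3 B6 day 0 arrays. Gsta4, a glutathione transferase that clears lipid peroxidation products, was at 8.16, 8.22 and 8.52 in B6 day 0 and 11.73, 11.89 and 11.98 in MRL labelled day 3, a difference of 3.57 ± 0.26 (SE, adjusted p = 1.06e-08) or 11.9-fold. It was -0.19 at day 7 and 2.10 at day 14, and the pair exceeded their mean by 2.62 (adjusted p = 1.4e-05). Car2, a carbonic anhydrase of keratinocytes and osteoclasts, was at 7.75, 7.16 and 6.89 and 9.81, 10.16 and 9.82, a difference of 2.66 ± 0.30 (SE, adjusted p = 2.78e-06) with an excess of 2.82 (adjusted p = 2.32e-05). Rbp2, a retinol-binding protein, was at 8.53, 8.39 and 8.56 and 10.55, 10.72 and 10.80, with 2.19 ± 0.21 (SE, adjusted p = 6.74e-07) and an excess of 1.79 (adjusted p = 5.96e-05). Rida, a deaminase of reactive imines, was at 7.01, 6.60 and 6.55 and 8.70, 8.27 and 8.52, with 1.78 ± 0.15 (SE, adjusted p = 6.03e-08) and an excess of 1.68 (adjusted p = 7.01e-06). In B6, Gsta4, Car2, Rbp2 and Rida were also higher at day 3 than at day 0, by 3.62, 3.06, 1.75 and 0.67. Chil1, a chitinase-like protein, was at 9.80, 8.23 and 8.84 and 9.92, 11.44 and 12.05, with 2.18 ± 0.45 (SE, adjusted p = 0.00109).

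Since Il1b and Mmp13 helped to choose the pair, the levels of inflammatory and metalloproteinase genes may follow from that choice. Their values, counts and p-values are given as a description only. Among genes of infiltrating cells, 5 of 16 neutrophil genes were higher in MRL labelled day 3 and 0 were lower, at a median of 0.19. The count fell to 1 without MRL array 3, to 2 without MRL array 2 or B6 day 0 array 2 or 3, and to 2 with cyclic loess. Cxcr2, the chemokine receptor of neutrophils, was at 7.12, 6.89 and 6.82 in B6 and 8.03, 8.27 and 8.87 in MRL, with 1.45 ± 0.24 (SE, adjusted p = 0.000137). The neutrophil granule gene Ngp was at 4.55, 4.35 and 4.49 and 4.60, 4.83 and 4.90, a difference of 0.31 (adjusted p = 0.728). The mean level of the list was 5.93 to 6.12 in B6 day 0, 6.01 to 6.81 in MRL labelled day 3 and 9.09 to 9.52 in B6 day 3. Of 22 cytokine and chemokine genes other than Il1b, 5 were higher and 1 lower, shares near or under the 18% and 12.3% over all probe sets. With the 6 arrays alone 3 were higher. Ccl3, a chemokine for monocytes, was at 5.98, 5.39 and 5.60 and 7.43, 6.28 and 7.08, with 1.27 (adjusted p = 0.00988) and 1.02 (adjusted p = 0.0682) without MRL array 1. At day 7 and day 14 Ccl3 was lower in MRL, by -2.42 (adjusted p = 0.000133) and -2.15 (adjusted p = 0.000603). The pair lay above the mean of those 2 differences by 3.56 (adjusted p = 1.46e-05), most of it from the later days. Il1f6, the epidermal cytokine interleukin 36 alpha, was at 9.69, 9.28 and 9.60 and 10.15, 10.98 and 11.09, with 1.22 ± 0.28 (SE, adjusted p = 0.00264), and Ccl20, which attracts Langerhans cell precursors and T cells, differed by 0.98 (adjusted p = 0.00562). Ccl8, a monocyte chemokine, went down, from 8.11, 8.05 and 8.51 to 6.34, 7.38 and 7.59, with -1.12 ± 0.27 (SE, adjusted p = 0.00382). Mmp3, stromelysin 1, was higher at 1.27 ± 0.23 (SE, adjusted p = 0.000312), and 4 other members of the 18 metalloproteinase and inhibitor genes other than Mmp13 were lower, among them Mmp14 at -0.55 (adjusted p = 0.00187) and Timp2 at -0.60 (adjusted p = 0.00224).

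Connective tissue genes were lower in MRL labelled day 3. Of 23 fibrillar collagen and matrix genes, 16 were lower and 1, Lum, named after its value was seen, was higher, at a median of -0.44 against -0.04 over all genes. Without MRL array 3, and without B6 day 0 array 3, the lower count was 10 each time. Eln, elastin, was at 10.29, 10.56 and 10.84 in B6 day 0 and 9.37, 9.09 and 8.94 in MRL, far apart, with -1.43 ± 0.18 (SE, adjusted p = 8.77e-06). At days 7 and 14 its strain differences were 0.17 (adjusted p = 0.611) and 0.05 (adjusted p = 0.936), and the pair differed from their mean by -1.54 (adjusted p = 4.73e-05). Col1a1, the main collagen chain of dermis and bone, was at 12.58, 12.60 and 12.68 and 11.73, 11.81 and 11.78, with -0.85 ± 0.14 (SE, adjusted p = 0.000172) and -0.94 (adjusted p = 0.000591) relative to the later days. Col5a1, which starts collagen fibrils, averaged 8.94 ± 0.05 and 8.22 ± 0.03 (SD, n = 3), with -0.72 ± 0.16 (SE, adjusted p = 0.00194) in the limma fit, and Col8a1, a short-chain collagen, differed by -1.02 ± 0.18 (SE, adjusted p = 0.000229). For Col5a1 the MRL arrays were lower than all 21 others. The list passed in 1 member up and 0 down at day 7 and in 0 up and 3 down at day 14. By the test against the later days, 1 member was more positive, 7 were more negative and 15 did not pass, beside 18.6% and 6.62% over all probe sets. Col8a1 was also lower at day 14, by -0.94 (adjusted p = 0.00231), and did not pass that test, at -0.35 (adjusted p = 0.27).

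Of 13 wound matricellular genes, 6 were lower and 2 higher, beside 12.3% lower and 18% higher over all probe sets. Fn1, fibronectin, was at 11.72, 11.39 and 11.58 and 10.40, 10.79 and 10.54, with -0.99 ± 0.15 (SE, adjusted p = 4.95e-05), and lay below all 21 other arrays in MRL labelled day 3. Ccn1 and Ccn2, secreted targets of mechanical signalling, differed by -0.92 (adjusted p = 0.00963) and -0.81 (adjusted p = 0.00315). The higher count of this list was 0 with cyclic loess, with quantile normalization and without B6 day 0 array 3, and 1 without MRL array 1, MRL array 3 or B6 day 0 array 1. Of 11 osteoblast and osteocyte genes, 4 were lower and 0 higher, Col1a1 among them, and the count was 1 without MRL array 1 or B6 day 0 array 3. Alpl, the phosphatase of mineralization, differed by -0.70 (adjusted p = 0.0191), and by -0.63 (adjusted p = 0.0786) without MRL array 1, -0.68 (adjusted p = 0.0527) without B6 day 0 array 2 and -0.60 (adjusted p = 0.0848) without B6 day 0 array 3. Sost, sclerostin of osteocytes, differed by -0.65 (adjusted p = 0.0134), and by -0.52 (adjusted p = 0.0867) and -0.57 (adjusted p = 0.0653) without MRL array 1 and B6 day 0 array 3. Chad, chondroadherin of cartilage, was at 10.90, 10.52 and 10.73 and 8.92, 9.60 and 9.71, with -1.30 (adjusted p = 0.0105) and -1.06 (adjusted p = 0.0694) without MRL array 1. Of 19 cartilage genes 3 were lower and 1, C1qtnf3 at 0.57 (adjusted p = 0.0278), was higher, shares near or under those over all probe sets. Without MRL array 1 the lower count and the higher count were both 0. Of 14 osteoclast genes 2 were higher, Car2 and, named after its value was seen, Ostm1, and 1 was lower, Nfatc1 at -0.41 (adjusted p = 0.0362). Nfatc1 lost its call when any of the 6 arrays but MRL array 3 was left out, and the lower count was 0 without MRL array 1 or 2 or B6 day 0 array 2 and 3 without MRL array 3. Cilp, of cartilage and tendon, was at 10.65, 10.38 and 10.62 and 9.93, 9.69 and 9.55, with -0.82 ± 0.18 (SE, adjusted p = 0.00164).

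Cell cycle genes were higher in MRL labelled day 3. Of 21 measured, 11 were higher and 0 lower, at a median of 0.24. Mki67, the Ki-67 protein of dividing cells, was at 8.19, 8.38 and 7.80 in B6 day 0 and 9.39, 9.50 and 9.37 in MRL, without overlap, and its difference of 1.30 ± 0.24 (SE, adjusted p = 0.000407) exceeded that at days 7 and 14 by 1.56 (adjusted p = 0.000619). Ttk, a kinase of the spindle checkpoint, was at 6.17, 6.44 and 6.21 and 7.61, 7.56 and 7.44, with 1.26 ± 0.14 (SE, adjusted p = 2.4e-06). Bub1, of the same checkpoint, was at 6.00, 6.07 and 5.68 and 7.24, 6.99 and 6.80, with 1.09 ± 0.16 (SE, adjusted p = 4.88e-05), and Kif11, a spindle motor, differed by 0.95 ± 0.16 (SE, adjusted p = 0.000115). At day 7 the list had 0 members higher and 2 lower, and at day 14 it had 0 and 3. In B6, 20 of the 21 were higher at day 3 than at day 0. Of 15 genes of CDK inhibitors and p53 targets, 6 were higher and 1 lower, and cyclic loess made 5 of them lower. Gadd45a, induced by DNA damage, was at 8.27, 8.05 and 7.70 and 8.99, 8.98 and 8.97, with 0.98 ± 0.21 (SE, adjusted p = 0.00117). Ccng1 and Mdm2, both targets of p53, differed by 0.68 (adjusted p = 0.000121) and 0.64 (adjusted p = 5.98e-05), and Cdkn2c, a CDK inhibitor, by 0.63 (adjusted p = 0.00245).

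**Figure D5:**
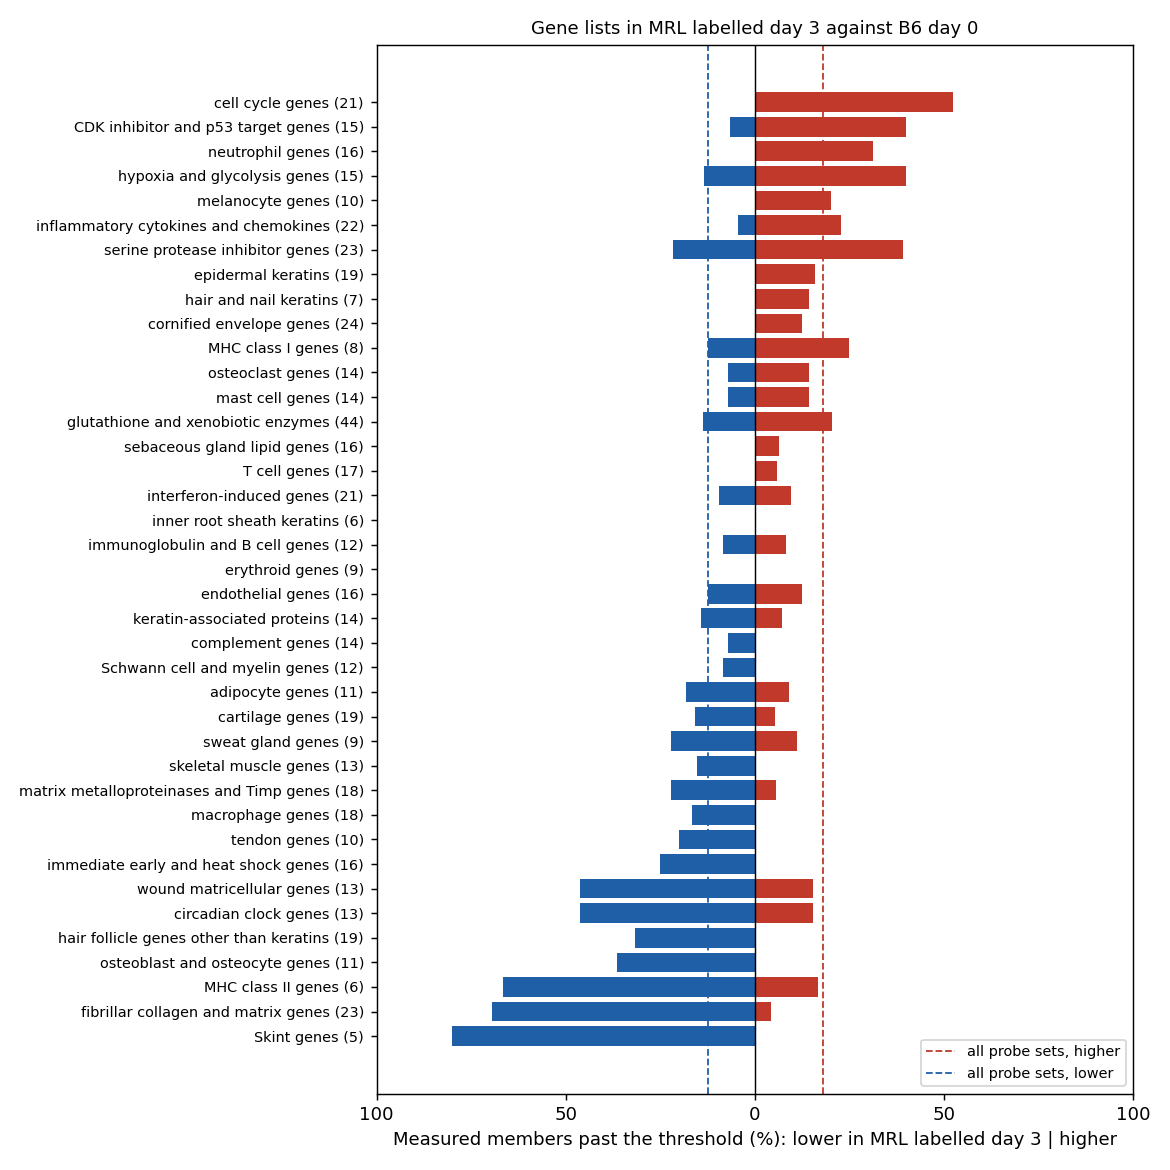
Share of measured members of 39 gene lists (number measured in brackets) past an adjusted p of 0.05 in MRL labelled day 3 against B6 day 0, higher to the right in red and lower to the left in blue. Dashed lines mark the shares over all probe sets, 18% higher and 12.3% lower. Cell cycle genes lead the higher side, with 11 of 21, and Skint genes and fibrillar collagen and matrix genes the lower, with 4 of 5 and 16 of 23.

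Hair and nail genes were measured in several lists. Since Krt31 helped to choose the pair, the levels of these genes may follow from that choice. Their values and p-values are given as a description only. Of 7 hair and nail keratins other than Krt31, 1 was higher and 0 lower, at a median of -0.08, and all 7 were higher in MRL at day 7. The exception was Krt84, a keratin of nail and tongue, at 8.29, 7.93 and 8.38 in B6 day 0 and 10.34, 9.01 and 10.21 in MRL, with 1.66 (adjusted p = 0.00881) and 1.41 (adjusted p = 0.0537) without MRL array 1. It was also higher in MRL at day 7, by 2.44 (adjusted p = 0.00139), and at day 14, by 1.91 (adjusted p = 0.0137). Of 6 inner root sheath keratins 0 passed in either direction, with -0.16 for Krt25 and -0.23 for Krt27. Of 14 keratin-associated protein genes of the list, which stiffen the hair shaft, 1 was higher and 2 lower, and 13 were higher at day 7. The lower count was 0 without MRL array 2 and 0 without B6 day 0 array 3. Krtap13 was at 3.88, 3.22 and 3.16 and 6.66, 5.40 and 5.82, with 2.54 ± 0.56 (SE, adjusted p = 0.00174), and at 3.31 (adjusted p = 0.000555) and 2.02 (adjusted p = 0.0371) later. Krtap21-1 was at 9.33, 9.22 and 9.91 and 7.72, 7.52 and 8.10, with -1.70 ± 0.30 (SE, adjusted p = 0.000254) in the pair against 1.92 at day 7 and 1.08 at day 14, a test of -3.20 (adjusted p = 9.62e-06). Krtap19-9b differed by -1.70 (adjusted p = 0.00723), and by -1.23 (adjusted p = 0.0558) without MRL array 2. Krtap6-2, at -1.54 (adjusted p = 0.0165), lost its call without MRL array 2, at -1.11 (adjusted p = 0.102), and without B6 day 0 array 3, at -1.36 (adjusted p = 0.0721).

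Regulators of the hair follicle were lower in part. Of 19 follicle genes other than keratins, 6 were lower and 0 higher. The count was 2 without MRL array 1, B6 day 0 array 1 or B6 day 0 array 2, and 3 without MRL array 2 or with the MRL arrays titled day 0 left out of the fit. Dlx3, a homeobox factor of hair and bone, was at 9.38, 9.24 and 9.21 and 8.49, 8.76 and 8.73, with -0.62 ± 0.15 (SE, adjusted p = 0.00348), and Foxn1, the factor whose loss makes nude mice, was at 8.40, 8.42 and 8.39 and 7.74, 7.91 and 7.97, with -0.53 ± 0.14 (SE, adjusted p = 0.00667). Both passed against the later days as well, at -0.84 (adjusted p = 0.00182) and -0.84 (adjusted p = 0.0011).

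Clock and oxygen genes also differed. Of 13 circadian genes, 2 were higher and 6 lower. Clock, the activator, was at 8.83, 8.80 and 8.33 in B6 day 0 and 9.68, 9.49 and 9.38 in MRL, with 0.87 ± 0.14 (SE, adjusted p = 8.61e-05). Its target Per1 was at 9.34, 9.61 and 9.21 and 9.04, 8.71 and 8.42, with -0.66 ± 0.15 (SE, adjusted p = 0.00219), and Per3 and Dbp, further targets, differed by -0.59 (adjusted p = 0.00223) and -0.60 (adjusted p = 0.00461). At day 7 and at day 14, 0 of the 13 passed. By the test against the later days, 1 was more positive, 4 were more negative and 8 did not pass, beside 18.6% and 6.62% over all probe sets. From B6 day 0 to B6 day 3, on the same B6 day 0 arrays, 9 of the 13 fell and 0 rose, beside 28% lower over all probe sets. The labels give no hour of sampling. Of 15 hypoxia and glycolysis genes, 6 were higher and 2 lower. The higher count was 1 with cyclic loess and 3 without MRL array 1 or B6 day 0 array 2, and the lower count was 1 when any of the 3 B6 day 0 arrays or MRL array 1 or 2 was left out. Hif1a, the oxygen-sensing factor, was at 9.71, 9.74 and 9.56 and 10.47, 10.51 and 10.39, with 0.79 ± 0.12 (SE, adjusted p = 4.4e-05), and Ddit4, an inhibitor of mTOR, was at 10.25, 10.57 and 10.28 and 9.83, 9.34 and 9.07, with -0.95 ± 0.19 (SE, adjusted p = 0.000695). Egln3, which marks HIF proteins for decay, differed by 0.77 (adjusted p = 0.00745) and by 0.64 (adjusted p = 0.0502) without B6 day 0 array 3.

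The remaining lists had few calls, beside 18% higher and 12.3% lower over all probe sets. Of 16 endothelial genes 2 were higher and 2 lower, with Emcn, a vessel sialomucin, at 0.62 ± 0.13 (SE, adjusted p = 0.00121). The lower count was 0 when any B6 day 0 array or MRL array 1 was left out and 1 without MRL array 3, and it was 5 with cyclic loess. Of 14 mast cell genes 2 were higher and 1 lower, Tpsg1, a membrane tryptase, at 7.04, 7.21 and 6.85 and 6.09, 6.10 and 6.37 with -0.85 ± 0.12 (SE, adjusted p = 4.4e-05). The higher count was 1 without MRL array 2 or B6 day 0 array 2 and 0 without B6 day 0 array 3. Of 11 adipocyte genes 1 was higher and 2 lower, with Retn, resistin, at -0.56 ± 0.12 (SE, adjusted p = 0.00174), and the lower count was 1 without MRL array 1. Of 16 sebaceous lipid genes 1 passed, and of 9 erythroid genes 0 did. Of 21 interferon-induced genes 2 passed each way, with Ifi27l2a at -1.14 ± 0.27 (SE, adjusted p = 0.00307) and Ifi203 at 0.69 ± 0.17 (SE, adjusted p = 0.00459). The lower count was 1 when any of the 6 arrays was left out, and the higher count was 1 when any but MRL array 1 was.

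Taking the day labels as written, MRL titled day 0 against B6 day 0 gave 6372 calls (40%), 2850 higher (17.9%) and 3522 lower (22.1%), and it shares its B6 arrays with the pair. H2-Ea and Skint9 had like values in both: H2-Ea differed by 5.87 in the pair and 6.07 by title, and Skint9 by -6.19 and -6.24. Akr1c21 differed by -4.82 and -5.11, but it also fell from day 0 to day 3 in B6. Values were less alike for Cyp2g1, with -2.91 and -1.45, and for Gpx3, with -1.92 and -3.12. Wound and hair genes had other values by title: Cxcr2 differed by 1.45 and 3.48, Mmp3 by 1.27 and 4.09, and the hair keratin Krt35 by -0.25 and -2.99. Serpina3a was nearer to B6 by title, with 2.73 in the pair and 0.94 by title. In B6 alone, day 3 minus day 0 gave 4.03 for Cxcr2, 4.99 for Mmp3, -4.09 for Krt35, -0.03 for H2-Ea and -4.47 for Akr1c21.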

How the data were processed

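Total RNA of mouse digits was measured on Affymetrix exon arrays, 3 for each of 8 groups of 2 strains and 4 days. Per the submitters' processing notes, the authors used RMA in Affymetrix Expression Console with build mm8. The authors deposited 1 linear intensity for each probe set, and how RMA output was brought to that scale was not stated. Of 16661 probe sets, 15928 with at least 1 gene symbol in GEO's platform annotation were tested, and 14884 of 14939 with a single symbol matched RefSeq genes of GRCm38.p6 by Entrez identifier.

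Deposited values were turned to log2 and fitted with limma 3.58.1 in R 4.3.3, with 1 mean for each group, 16 residual and 4.62 prior degrees of freedom, and Benjamini-Hochberg adjustment over all 15928, at a threshold of 0.05. A difference is MRL minus B6 on the log2 scale, ± its standard error. The arrays' number limits the precision, and p-values measure the spread between the submitted replicates. The test was tried on simulated data. Members and the 40 gene lists were chosen with earlier results of these data known, and Il1b, Mmp13 and Krt31, which chose the pair, were left out of the lists. For each gene the probe set with the highest mean was used. Genes named are the 15 highest and 15 lowest called differences without overlap, up to 4 of each list by size, and the 10 highest and 10 lowest of the shared calls and of the difference from later days, without predicted genes. Same-numbered replicates of the compared groups deviated with correlations of -0.00, -0.01 and 0.10, so they were not treated as pairs.

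Alternatives were 3 scalings, an added 50, filters, array weights, a variance trend, a replicate block, the 6 arrays alone and each array left out. Fits without the MRL arrays of doubtful day were added after seeing the data.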

Additional observations from a re-analysis of the deposited data

Results flagged for a closer look

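The strain difference of the intact-like pair differed from the mean strain difference of days 7 and 14, by a test of that difference, in 4016 probe sets. The 10 genes most positive by this test had log2 values of 3.56 for Ccl3, 3.53 for Sprr2e, 3.46 for Krt16, 3.08 for S100a9, 2.82 for Car2, 2.79 for Epgn, 2.70 for S100a8, 2.66 for Ngp, 2.62 for Gsta4 and 2.57 for Rptn. Of these, Epgn, an epidermal growth factor, and Ngp, a neutrophil granule gene, had no call in the pair itself, at 1.10 (adjusted p = 0.0895) and 0.31 (adjusted p = 0.728), and their day 7 differences were -2.88 (adjusted p = 0.000521) and -3.41 (adjusted p = 0.000614). The 10 most negative were genes of hair shaft proteins, with -4.02 for Krtap6-2, -3.57 for Krtap19-9b, -3.20 for Krtap21-1, -2.82 for Krtap19-2, -2.67 for Krtap19-3, -2.53 for Krtap19-5, -2.49 for Krtap1-5, -2.25 for Krtap4-2, -2.15 for Krtap4-7 and -2.12 for Krtap14. All 10 had a positive strain difference past the threshold at day 7, from 1.85 for Krtap19-3 to 3.84 for Krtap1-5, and 4 of the 10 had a call in the pair. Since low Il1b and Mmp13 and high Krt31 chose the pair, the inflammatory and hair shaft genes listed here may follow from that choice.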

How the results depend on the processing

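Among the named genes called in the pair and the 20 of the difference from later days, none changed sign under the alternatives run. For Il1b, Mmp13 and Krt31 only the size of the difference was checked, not its sign. Single genes at day 7, at day 14, in B6 over time and by title were not refitted. Calls in the pair ran from 3370 without MRL array 1 to 6321 with array weights, against 4833, and 3294 of the 4833 were kept without MRL array 1. Calls in the difference from days 7 and 14 ran from 3133 to 5008, and the shared calls from 176 to 271. With one replicate left out, calls at day 7 ran from 894 to 1297 and at day 14 from 499 to 1177. The replicate block gave 4702 calls in the pair, 1436 at day 7, 787 at day 14 and 3870 in the difference from later days. Of 2214 checks over 131 named genes, 220 in 51 genes lost the call. Il1b, Mmp13 and Krt31 count among the 131, although they had no call to lose. All 200 checks of the 20 genes of the difference from later days kept the call. Scaling put the median difference of all probe sets in the pair at -0.03 with cyclic loess, 0.00 with median centring and -0.04 with quantile normalization, against -0.04. With the MRL arrays titled day 0 left out of the fit the pair had 4730 calls, and with those of both doubtful days left out day 7 had 1273 and day 14 had 727. With 3 arrays a group, the array number limits precision, and the height of low signals above background is not known.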

Other observations

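A few further strain differences fell outside the lists. Rbp7, a retinol-binding protein of fat and vessels, was at 7.97, 8.43 and 8.18 in B6 day 0 and 9.60, 9.54 and 9.16 in MRL labelled day 3, with 1.24 ± 0.26 (SE, adjusted p = 0.00134), and at 1.44 (adjusted p = 0.0012) and 1.52 (adjusted p = 0.00101) on days 7 and 14. Ccdc38, a coiled-coil protein of sperm, was at 4.27, 4.26 and 4.22 and 5.69, 5.52 and 5.47, with 1.31 ± 0.12 (SE, adjusted p = 1.95e-07), and every MRL array lay above every B6 array. Scgb2b24, a secretoglobin, was at 4.64, 4.56 and 5.05 and 3.46, 3.24 and 2.77, with -1.59 ± 0.30 (SE, adjusted p = 0.0005).

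The 86 probe sets with all 12 MRL arrays on 1 side of all 12 B6 arrays were spread over the autosomes. Of single-gene probe sets they were 8 of 752 on chromosome 8, 8 of 1233 on chromosome 11, 7 of 879 on chromosome 4 and 7 of 830 on chromosome 6. Those on chromosome 4 included Skint9, Skint3, Skint4 and Skint2, which belong to 1 gene family. On chromosome X, 0 of 473 had that separation and 0 were among the shared calls, against 0.54% and 1.3% over all probe sets. Kdm5d and Eif2s3y of chromosome Y averaged 3.63 and 3.08 in B6 day 0 and 3.52 and 3.06 in MRL labelled day 3.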
